A study of Arabidopsis thaliana with 4 samples.

Results

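Suberin is a wall polyester that seals cells against water and solutes. The 10 Arabidopsis thaliana genes described here encode enzymes that make its building blocks: the acyltransferases GPAT5 and GPAT7, the fatty acid hydroxylases CYP86A1 and CYP86B1, the fatty acyl reductases FAR1, FAR4 and FAR5, the feruloyl transferase ASFT and the chain-elongating synthases KCS2 and KCS20. They were taken by locus identifier from 33602 genes counted in each library. Of the 10, 8 had a count in at least 1 library and 7 had enough counts to be tested.

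The samples were sorted protoplasts from floral abscission zones of ebp1 mutants in the Col-0 ecotype, from soil-grown plants kept at 22 °C and lit for 16 h a day. Residuum cells (REC), which stay on the receptacle when floral organs are shed, gave 2 libraries, and secession cells (SEC), which leave with the detached organ, gave the other 2. Both groups carry ebp1 and the reporter proQRT2::nlsGFP-GUS, a nuclear green fluorescent protein driven by the promoter of QRT2, and cells were sorted on it. The genotype labels number the QRT promoter differently in each library, while the series text gives QRT2 for all. No wild-type library was analysed here, so nothing below shows what the mutation changes. Whether the 2 libraries of a group are from separate plants is not stated in the labels. The p-values therefore reflect the spread between these samples alone, which may be technical.

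Suberin is built from long fatty acids that are hydroxylated at the end of the chain, joined to glycerol and to ferulate, and mixed with free or esterified fatty alcohols. In Arabidopsis it is best known from the root endodermis, the periderm, the seed coat and wounds. Scars left by abscission in many plants are sealed by layers with suberin or lignin. Its enzymes have close relatives that make the cutin and wax of the shoot surface, so the same enzyme families serve suberin and the cuticle.

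GPAT5 was the one gene of the set that passed the test between the sides, and the 2 promoter windows below compare it with its closest relative GPAT7, which had no counts in any library. Each window runs from 250 bases before to 50 bases after the annotated start, read 5′ to 3′ on the gene's strand from RefSeq's TAIR10.1 build. Capitals mark words searched on both strands: AC elements, W boxes and ABREs. AC elements, bound by R2R3-MYB factors, were searched as the word ACCTACC, as the word ACCAACC, as the word ACCTAAC and as the word ACCAAAC. The W box, bound by WRKY factors, was searched as the word TTGACC and as the word TTGACT. The ABRE, bound by factors of the abscisic acid response, was searched as the word ACGTGTC and as the word ACGTGGC.
GPAT5 (chr3:3595444-3595743, plus strand): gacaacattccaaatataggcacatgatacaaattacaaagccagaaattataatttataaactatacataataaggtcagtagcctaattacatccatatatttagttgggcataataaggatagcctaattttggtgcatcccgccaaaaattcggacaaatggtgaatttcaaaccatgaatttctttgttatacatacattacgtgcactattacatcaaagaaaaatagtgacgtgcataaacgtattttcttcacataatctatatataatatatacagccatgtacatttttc
GPAT7 (chr5:1834797-1835096, plus strand): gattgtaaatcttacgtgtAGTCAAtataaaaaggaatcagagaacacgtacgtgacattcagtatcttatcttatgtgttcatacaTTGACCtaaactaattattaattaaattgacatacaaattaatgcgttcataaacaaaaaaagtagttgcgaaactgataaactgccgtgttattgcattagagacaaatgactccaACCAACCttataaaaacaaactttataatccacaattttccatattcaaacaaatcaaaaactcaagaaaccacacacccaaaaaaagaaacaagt
The GPAT5 window held none of these words. The GPAT7 window held an AC element from -46 to -40 relative to the start and W boxes from -231 to -226 and from -163 to -158. Over all 10 genes, 2 windows held an AC element (GPAT7 and ASFT), 6 held a W box and 0 held an ABRE, against 16.3%, 32.4% and 7.64% of 27443 promoter windows of the same length.

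Levels are CPM (counts scaled to a fixed total, the library size adjusted by edgeR's TMM method), and levels of different genes are compared as CPM per kb of the longest RefSeq transcript. The sort itself was checked on genes of the abscission zone. Gene counts per library ran from 12191718 to 16102115. QRT2, the source of the reporter promoter, read 493 and 568 CPM in the REC pair, against 459 and 694 CPM in the SEC pair. HAE and HSL2, receptor kinase genes of organ shedding, were read at 68.3 CPM or more in every library. IDA, the peptide ligand of these receptors, had 0.47 and 0.87 CPM in the REC pair, against 32.5 and 13.9 CPM in the SEC pair, and ADPG2, a polygalacturonase gene of cell separation, 22.8 and 21.9 CPM in the REC pair, against 147 and 171 CPM in the SEC pair. The REC libraries differed less from each other than the SEC libraries did: chi-square over its degrees of freedom was 5.39 in RECs and 70.8 in SECs, both above sampling noise. SEC replicate 1 was low in long transcripts beside the other libraries. Its log2 level, centred on each gene's mean over all libraries, changed by -0.45 per doubling of transcript length. The slopes of the other 3 libraries were 0.13 to 0.16, which this centring forces to offset that of SEC replicate 1. IDA had a log2 fold change of -5.08 (-4.34 without SEC replicate 1) and ADPG2 one of -2.83, both called by edgeR. By limma voom IDA did not pass (adjusted p = 0.113). On the strand opposite to CYP86A2, ABCG1, 4CL1, ABI1, QRT2, ASFT and FAR1 the reference annotates an overlapping gene, as it does for FAR4 and KCS2, so their levels are uncertain in libraries that do not mark strand.

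Across the set the reductase genes carried nearly all of the transcript level. FAR1, FAR4 and FAR5 together made up 95.5% and 95.5% of the summed CPM per kb of the 10 genes in the REC libraries, against 93.2% and 95.1% in the SEC libraries. The whole set summed to 1798 and 1948 CPM per kb in RECs and to 1687 and 1888 CPM per kb in SECs, so the sums of the groups overlapped. Ordered by CPM per kb, FAR5, FAR1 and FAR4 came first in every library, followed by KCS20 and KCS2. GPAT5 came next in SECs, where ASFT followed, whereas ASFT stood above GPAT5 in RECs. For comparison, the median gene of 18367 tested genes with a known length stood at 9.31 to 9.67 CPM per kb.

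**Figure D1:**
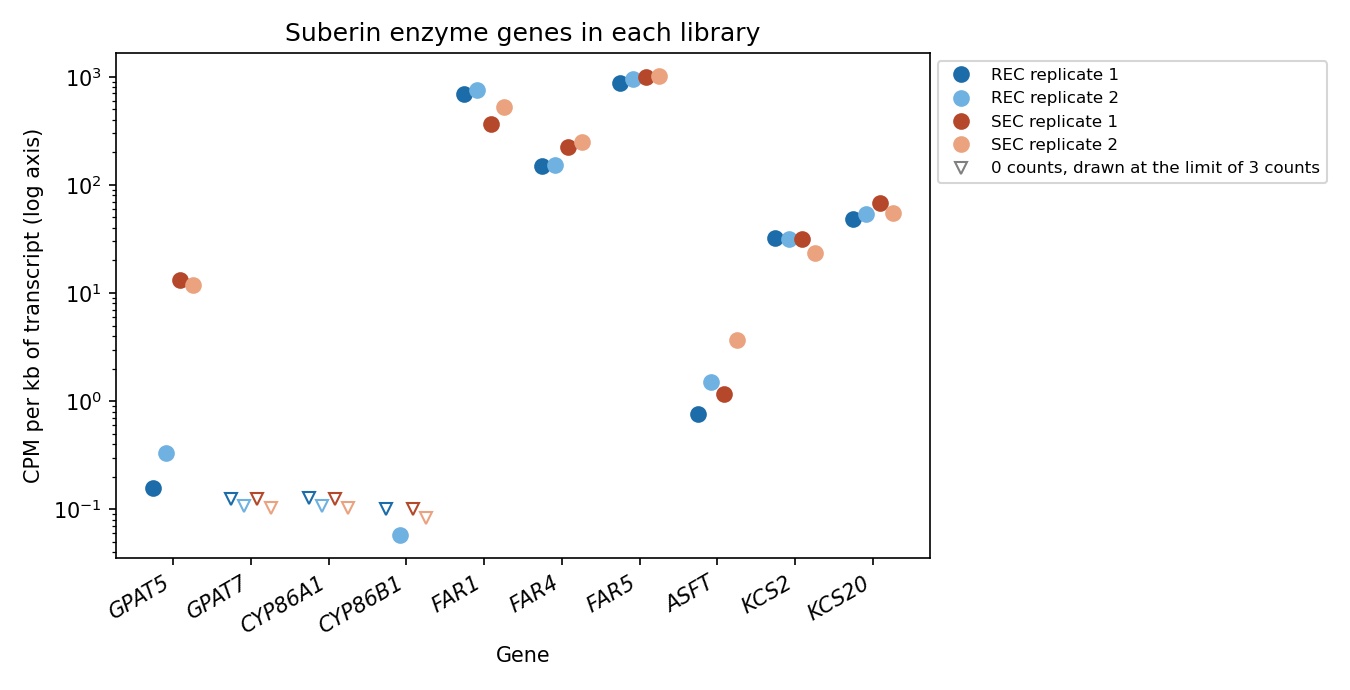
CPM per kb of transcript (log axis) of each of the 10 suberin enzyme genes in the 2 REC and the 2 SEC libraries, 1 point per library. Open triangles stand for libraries with 0 counts and are drawn at the limit that 3 counts in that library set. GPAT5 is the only gene whose points lie more than 10 times apart between the groups, and the reductase genes lie highest.

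The comparison asked which of these genes differed between residuum and secession cells. By edgeR's quasi-likelihood test with Benjamini-Hochberg adjustment over 18384 genes, an adjusted p under 0.05 was reached by 0 of the 7 tested members with the higher level in RECs and by 1 with the higher level in SECs. The same test called 2.67% of all genes, 0.495% with the higher level in RECs and 2.18% with the higher level in SECs. That split, 91 and 400 genes, was 874 and 1729 with the trend on transcript length removed. An unadjusted p under 0.05 was reached by FAR1, higher in RECs, and by GPAT5 and FAR4, higher in SECs; of all genes tested, 9.46% reached it toward RECs and 14.1% toward SECs. DESeq2 called 0 members higher in RECs and 2 higher in SECs, against 4.15% and 8.56% of all genes. For limma voom these were 0 and 1, against 0.495% and 1.75% of all genes. Both libraries of one group lay above both of the other in 5 of the 7, against 58.0% of all genes tested. The median log2 fold change, REC minus SEC, was -0.27 over the 7 members and 0.02 over all genes tested. The members that could be tested had to reach a minimum count in one group, so these figures do not describe all 10.

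GPAT5 (AT3G11430) transfers acyl chains to glycerol-3-phosphate and is required for normal suberin of seed coats and roots. It had 4 and 10 counts in the REC pair, against 341 and 369 in the SEC pair, or 0.31 and 0.67 CPM in the REC pair, against 26.3 and 23.7 CPM in the SEC pair. The groups lay far apart and the libraries within each side were close in absolute level. The log2 fold change was -5.62 (SE 0.46, adjusted p = 0.0267), a level 49.2-fold higher in SECs with a 95% interval of 22.2 to 109. Without REC replicate 2, which leaves a REC library of 4 counts, it was -6.26. It passed the threshold in all 12 alternative analyses, from -6.26 to -5.18. In a bulk sample fewer cells of a type and less RNA per cell cannot be told apart, here or in the results that follow.

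GPAT7 (AT5G06090), the relative of GPAT5 whose expression is known to respond to wounding, had 0 counts in all 4 libraries. A count of 0 allows up to 0.108 CPM over the REC libraries and up to 0.105 CPM over the SEC libraries. Their coding sequences were 78.2% identical and shared no identical run longer than 17 bases, and no stretch of 50 bases of either occurred in another gene. Measured per length, GPAT5 made up 0.0240% and 0.0462% of the summed level of the 8 genes GPAT1 to GPAT8 in RECs and 1.74% and 1.38% in SECs. The family was dominated on both sides by GPAT6, which makes cutin precursors in flowers, at 74.1% and 75.6% in RECs and 81.6% and 84.3% in SECs. GPAT6 itself had 1075 and 1210 CPM in the REC pair, against 1367 and 1604 CPM in the SEC pair (log2 fold change -0.38 with SE 0.16, adjusted p = 0.235 by edgeR's quasi-likelihood test). It came to -0.49 without SEC replicate 1 and to -0.25 without SEC replicate 2, and passed the threshold at -0.48 with the length trend removed.

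By likeness of its profile over the 4 libraries, measured as the Euclidean distance of centred log2 CPM among 11588 tested genes of at least 10 CPM on average, 3 genes lay nearest to GPAT5. They were AT5G42830, for an acyltransferase of the HXXXD type, at a distance of 0.75, AT2G41380, for a methyltransferase, at 0.88, and AT2G18193, for a nucleoside triphosphate hydrolase, at 0.91. AT5G42830 had 0.86 and 2.40 CPM in the REC pair, against 42.8 and 40.9 CPM in the SEC pair. AT2G41380 had 1.41 and 1.8 CPM in the REC pair, against 49.0 and 35.8 CPM in the SEC pair, and AT2G18193 had 1.73 and 1.94 CPM in the REC pair, against 48.4 and 46.9 CPM in the SEC pair. All 3 were low in both REC libraries and high in both SEC libraries, as the likeness rule required.

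The hydroxylases that define suberin acids were not read above the limit of detection. CYP86A1 (AT5G58860), which hydroxylates the end of long-chain fatty acids in roots, had 0 counts in all 4 libraries, with the same limits of 0.108 CPM in RECs and 0.105 CPM in SECs. CYP86B1 (AT5G23190), its counterpart for very long chains, had 0 and 2 counts in the REC pair, against 0 and 0 in the SEC pair. Both groups were at or under 3 counts, so no fold change is given for either gene. The family was read through other members: CYP86A2, a cutin hydroxylase, made up 81.1% and 84.6% of the CPM per kb of the 11 CYP86A, CYP86B and CYP86C genes in RECs and 92.0% and 93.5% in SECs. CYP86A2 had 217 and 257 CPM in the REC pair, against 120 and 176 CPM in the SEC pair, and did not pass the test (log2 fold change 0.68, adjusted p = 0.188 by edgeR). With SEC replicate 1 or SEC replicate 2 left out its log2 fold change was 0.43 and 1.00.

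The fatty acyl reductases make the primary alcohols of suberin, each with its own preferred chain length. FAR5 (AT3G44550) was the most abundant of the set, with 2498 and 2706 CPM in the REC pair, against 2798 and 2882 CPM in the SEC pair. By CPM per kb it ranked 38 and 26 among 18367 genes in the REC libraries, against 52 and 29 in the SEC libraries. The SEC libraries were both slightly above the REC libraries, and the log2 fold change of -0.13 did not pass the test (SE 0.13, 95% interval -0.45 to 0.19, adjusted p = 0.602 by edgeR). FAR5 passed the threshold in 0 of the 12 alternatives.

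FAR1 (AT5G22500) had 1478 and 1625 CPM in the REC pair, against 783 and 1141 CPM in the SEC pair. Both REC libraries lay above both SEC libraries, and the SEC libraries were well apart. The log2 fold change was 0.69 (SE 0.22, 95% interval 0.14 to 1.24, adjusted p = 0.14 by edgeR), which did not pass. It came to 0.44 with SEC replicate 1 left out and to 1.00 with SEC replicate 2 left out. With the trend on transcript length removed it was 0.61 and passed (adjusted p = 0.0387).

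FAR4 (AT3G44540) had the higher values on the other side, with 438 and 447 CPM in the REC pair, against 654 and 728 CPM in the SEC pair. The libraries of each side were close and the sides did not overlap. The log2 fold change of -0.64 (SE 0.16, 95% interval -1.04 to -0.25) missed the threshold (adjusted p = 0.0893 by edgeR). It passed by DESeq2 (adjusted p = 0.0439) and with the length trend removed (-0.89, adjusted p = 0.0323). Without SEC replicate 1 or SEC replicate 2 it was -0.72 and -0.55.

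Because these reductases act on different chain lengths, their proportions were also compared, as counts not scaled to transcript length. The longest transcripts have 2153 bases for FAR1, 2936 for FAR4 and 2836 for FAR5. The shares therefore compare libraries, not the levels of the genes with each other. Of the summed counts of FAR1, FAR4 and FAR5, FAR1 took 33.5% and 34.0% in the REC libraries, against 18.5% and 24.0% in the SEC libraries. FAR4 took 9.92% and 9.36% in RECs and 15.4% and 15.3% in SECs. FAR5 took 56.6% and 56.6% in RECs and 66.1% and 60.7% in SECs. Each exact 95% interval spanned under 1 percentage point and covers counting error only, since reads amplified without molecular identifiers are not independent molecules. The mix thus held more FAR1 in both REC libraries and more FAR4 in both SEC libraries. With 2 libraries a side, an exact permutation test cannot give a two-sided p under 0.333, and none was run on the shares.

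**Figure D2:**
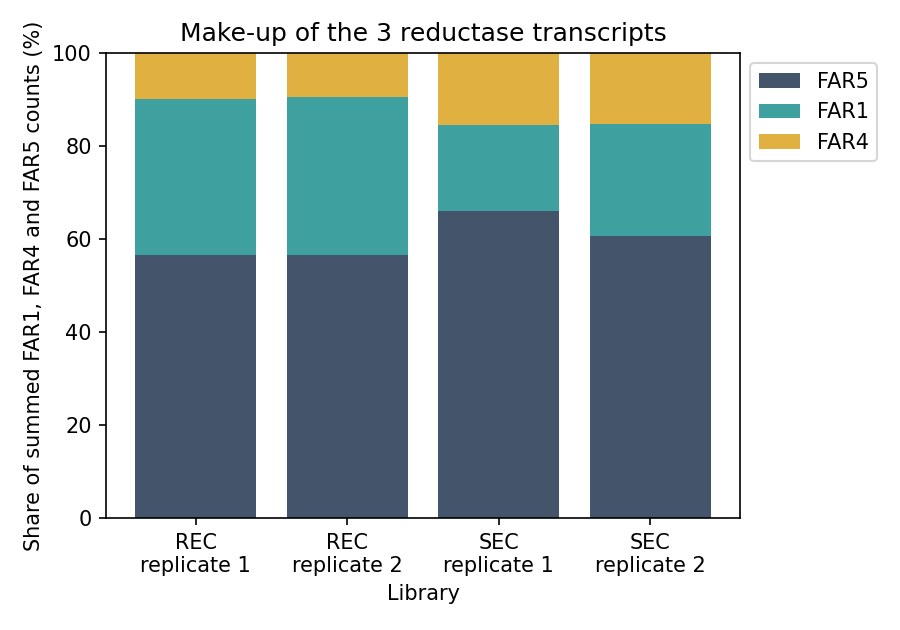
Share (%) of FAR1, FAR4 and FAR5 in their summed counts, not scaled to transcript length, 1 bar per library, REC left of SEC. FAR1 takes 33.5% and 34.0% in the REC libraries, against 18.5% and 24.0% in the SEC libraries, and FAR4 runs the other way.

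Within the family of 8 reductase genes the 3 suberin members took 80.8% and 82.2% of the CPM per kb in RECs and 88.2% and 88.3% in SECs. CER4, the reductase of wax alcohols, had 494 and 495 CPM in the REC pair, against 138 and 174 CPM in the SEC pair. It passed by edgeR (log2 fold change 1.67 with SE 0.19, adjusted p = 0.0321). With REC replicate 1 left out its log2 fold change was 1.70 and did not pass, the spread then coming from the SEC pair alone. FAR8, whose coding sequence is 87.5% identical to that of FAR5 with a longest identical run of 35 bases, had 292 and 283 CPM in the REC pair, against 264 and 283 CPM in the SEC pair. FAR1, FAR4 and FAR5 were 73.1% to 77.0% identical to each other in coding sequence. No stretch of 50 coding bases of FAR4 or FAR5 occurred in another gene, and for FAR1 4.27% did, all in an overlapping locus on the other strand.

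ASFT (AT5G41040), also named RWP1, attaches ferulate to the hydroxylated acids of suberin. It was read at a low level on both sides, with 17 and 39 counts in the REC pair, against 26 and 100 in the SEC pair, or 1.33 and 2.60 CPM in the REC pair, against 2.01 and 6.42 CPM in the SEC pair. The groups overlapped, and SEC replicate 2 stood alone at the top. The log2 fold change was -1.09 (SE 0.77, 95% interval -3.04 to 0.85, adjusted p = 0.452 by edgeR). It was -0.01 without SEC replicate 2 and -1.69, past the threshold, without SEC replicate 1. Per length ASFT had 0.77 and 1.5 CPM per kb in RECs and 1.16 and 3.70 CPM per kb in SECs, below the median gene in every library.

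KCS2 (AT1G04220) and KCS20 (AT5G43760) encode ketoacyl-CoA synthases that lengthen acyl chains beyond those of membrane lipids and act redundantly in root suberin. Their coding sequences were 84.1% identical, and the longest run they share, 53 bases, is printed because a read inside it cannot be assigned to one gene.
KCS2 and KCS20, coding strand: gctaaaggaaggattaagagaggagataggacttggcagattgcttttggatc
The run covers bases 1375 to 1427 of the KCS2 coding sequence and 1399 to 1451 of that of KCS20, and it held all of the 4 stretches of 50 bases that the genes share, 0.26% of those in each. KCS2 had 66.3 and 64.4 CPM in the REC pair, against 65.2 and 47.8 CPM in the SEC pair, with SEC replicate 2 lowest and the groups overlapping. KCS20 had 107 and 118 CPM in the REC pair, against 150 and 121 CPM in the SEC pair, with SEC replicate 1 highest. Neither passed the test: the log2 fold change was 0.21 for KCS2 (95% interval -0.41 to 0.83, adjusted p = 0.657 by edgeR) and -0.27 for KCS20 (95% interval -0.80 to 0.26, adjusted p = 0.502). Without SEC replicate 1 or SEC replicate 2, KCS2 was 0.45 and 0.01, and KCS20 was -0.10 and -0.40.

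KCS2 took 38.2% and 35.3% of the counts of the pair in the REC libraries, against 30.3% and 28.3% in the SEC libraries. The exact 95% intervals ran from 33.5% to 40.3% over the REC libraries and from 26.6% to 32.0% over the SEC libraries, for counting error only. The smaller KCS2 share thus lay in both SEC libraries. KCS2 is overlapped on the opposite strand by AT1G04210, which had 655 and 884 counts in the REC pair, against 303 and 734 in the SEC pair, and the kit does not mark strand, so the KCS2 level is uncertain. Of the CPM per kb of all 21 KCS genes, KCS2 and KCS20 took 21.4% and 20.5% in RECs and 38.4% and 29.4% in SECs. The largest single share was held by KCS6, of wax synthesis, in RECs (26.8% and 28.3%) and by KCS20 in SECs (26.1% and 20.6%).

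**Figure D3:**
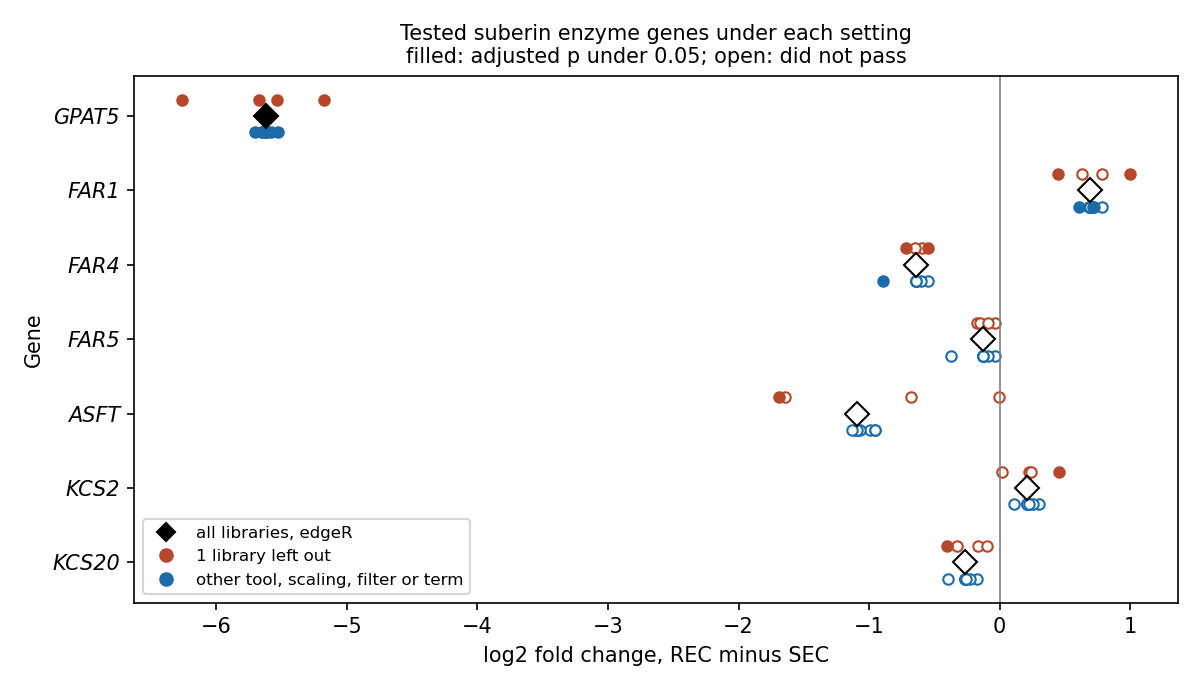
log2 fold change (REC minus SEC) of the 7 tested suberin enzyme genes with all libraries (diamonds), with 1 library left out (upper circles) and under other tools, scalings, filters or terms (lower circles); filled symbols passed an adjusted p of 0.05. GPAT5 passed in every setting drawn, FAR5 in none, and FAR1 and FAR4 in some. ASFT, KCS2 and KCS20 passed only with a SEC library left out, which is not read as a result.

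The relatives of these enzymes had mostly positive log2 fold changes, REC minus SEC. Of 41 other members of the acyltransferase, hydroxylase, reductase, feruloyl transferase and synthase families, 30 were tested, 3 passed with the higher level in RECs, 0 with the higher level in SECs, and 27 missed the threshold. Of all genes tested, edgeR called 0.495% and 2.18% in these directions. The median log2 fold change of the tested relatives was 0.86, against 0.02 over all genes tested, and 24 of the 30 were positive. With no adjustment, 14 of the 30 reached a p under 0.05 with the higher level in RECs and 1 with the higher level in SECs, against 9.46% and 14.1% of all genes tested. DESeq2 called 8 and 1, against 4.15% and 8.56% of all genes. CYP86A4, a cutin hydroxylase, had 40.2 and 36.7 CPM in the REC pair, against 3.55 and 3.02 CPM in the SEC pair (log2 fold change 3.55 with SE 0.28, adjusted p = 0.0267 by edgeR). KCS6 had 228 and 264 CPM in the REC pair, against 95.3 and 91.8 CPM in the SEC pair (log2 fold change 1.39, SE 0.19, adjusted p = 0.0381), a call that leaving out either REC library ended (adjusted p = 0.231 and 0.354). CER4, described above, was the other call. Whether the relatives differed from the 7 suberin members as a group was not tested.

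Regulators of suberin were mostly low. Of 12 listed factors 9 had a count and 6 were tested, and by edgeR 0 passed in either direction, as by DESeq2 and limma voom. Toward RECs and SECs, edgeR called 0.495% and 2.18% of all genes tested, DESeq2 4.15% and 8.56%, and limma voom 0.495% and 1.75%. A p under 0.05 before adjustment was reached by 1 factor in each direction, against 9.46% of all genes tested toward RECs and 14.1% toward SECs. MYB93, MYB39 and MYB67 had 0 counts in all 4 libraries, and MYB41, a factor able to switch on ectopic suberin, had 8 and 6 counts in the REC pair, against 0 and 5 in the SEC pair. NAC046, which promotes root suberin and leaf senescence, was the most abundant, with 21.2 and 24.3 CPM in the REC pair, against 58.5 and 33.4 CPM in the SEC pair (log2 fold change -1.01 with SE 0.34, adjusted p = 0.155 by edgeR). It came to -0.55 with SEC replicate 1 left out and to -1.35 with SEC replicate 2 left out. MYB107, a factor of seed coat suberin named here after its values were seen, had 42 and 38 counts in the REC pair, against 6 and 5 in the SEC pair (log2 fold change 2.87, SE 0.76, adjusted p = 0.102), the opposite side from GPAT5. With SEC replicate 1 or SEC replicate 2 left out its log2 fold change was 3.15 and 2.64.

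Transporters listed for the export of suberin monomers gave a single call. Of 8 listed genes, all tested, 0 passed with the higher level in RECs, 1 with the higher level in SECs, and 7 missed the threshold, with a median log2 fold change of -0.16. Of all genes tested, edgeR called 0.495% higher in RECs and 2.18% higher in SECs. Before adjustment, a p under 0.05 was reached by 1 exporter gene higher in RECs and 2 higher in SECs, against 9.46% and 14.1% of all genes. DESeq2 called 0 of the 8 higher in RECs and 2 higher in SECs, against 4.15% and 8.56% of all genes. For limma voom these were 0 and 1, against 0.495% and 1.75% of all genes. ABCG16, a half-transporter that also serves the pollen wall, had 39.2 and 46.1 CPM in the REC pair, against 168 and 186 CPM in the SEC pair (log2 fold change -2.06 with SE 0.21, adjusted p = 0.029 by edgeR), 4.16-fold higher in SECs. With REC replicate 1 left out its log2 fold change was -1.91 and did not pass, the spread then coming from the SEC pair alone. ABCG1, the most abundant exporter gene, had 1492 and 1593 CPM in the REC pair, against 759 and 1171 CPM in the SEC pair. Per length, ABCG1 had 603 and 644 CPM per kb in RECs and 307 and 473 CPM per kb in SECs, next to the 686 and 755 CPM per kb in RECs and 364 and 530 CPM per kb in SECs of FAR1. ABCG1 did not pass by edgeR (log2 fold change 0.68, SE 0.24, adjusted p = 0.168). It came to 0.40 with SEC replicate 1 left out and to 1.04 with SEC replicate 2 left out. With the length trend removed it passed (0.56, adjusted p = 0.0290).

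The precursor genes that passed by edgeR were all of the ferulate branch. Of 15 listed genes, all tested, 0 passed with the higher level in RECs, 5 with the higher level in SECs, and 10 missed the threshold. Of all genes tested, edgeR called 0.495% and 2.18% in these directions. Before adjustment, 2 of the 15 reached a p under 0.05 with the higher level in RECs and 8 with the higher level in SECs. Beside them stand the same 9.46% and 14.1% of all genes. DESeq2 called 1 of the 15 higher in RECs and 7 higher in SECs, against 4.15% and 8.56% of all genes. For limma voom these were 0 and 5, against 0.495% and 1.75% of all genes. The 5 called by edgeR, PAL1, C4H, 4CL1, HCT and CCOAOMT1, belong to the 8 genes that lead from phenylalanine to ferulate. They also serve lignin. 4CL1 stood 5.78-fold higher in the SEC libraries, with 71.4 and 71.9 CPM in the REC pair, against 386 and 443 CPM in the SEC pair (log2 fold change -2.53, SE 0.19). CCOAOMT1, for a methyltransferase of this branch, stood 2.09-fold higher in the SEC libraries. It had 813 and 753 CPM in the REC pair, against 1674 and 1605 CPM in the SEC pair. With REC replicate 1 left out, 4CL1 alone of the 5 still passed by edgeR, and the adjusted p was 0.109 for PAL1, 0.302 for C4H, 0.304 for HCT and 0.233 for CCOAOMT1. With REC replicate 2 left out, 4CL1 and PAL1 passed, and the adjusted p was 0.302 for C4H, 0.119 for HCT and 0.244 for CCOAOMT1. Upper-quartile scaling ended the calls of PAL1 (0.0510) and CCOAOMT1 (0.0502). Of the 7 genes for acyl chains and glycerol, 0 passed in either direction and 6 had a positive log2 fold change.

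**Figure D4:**
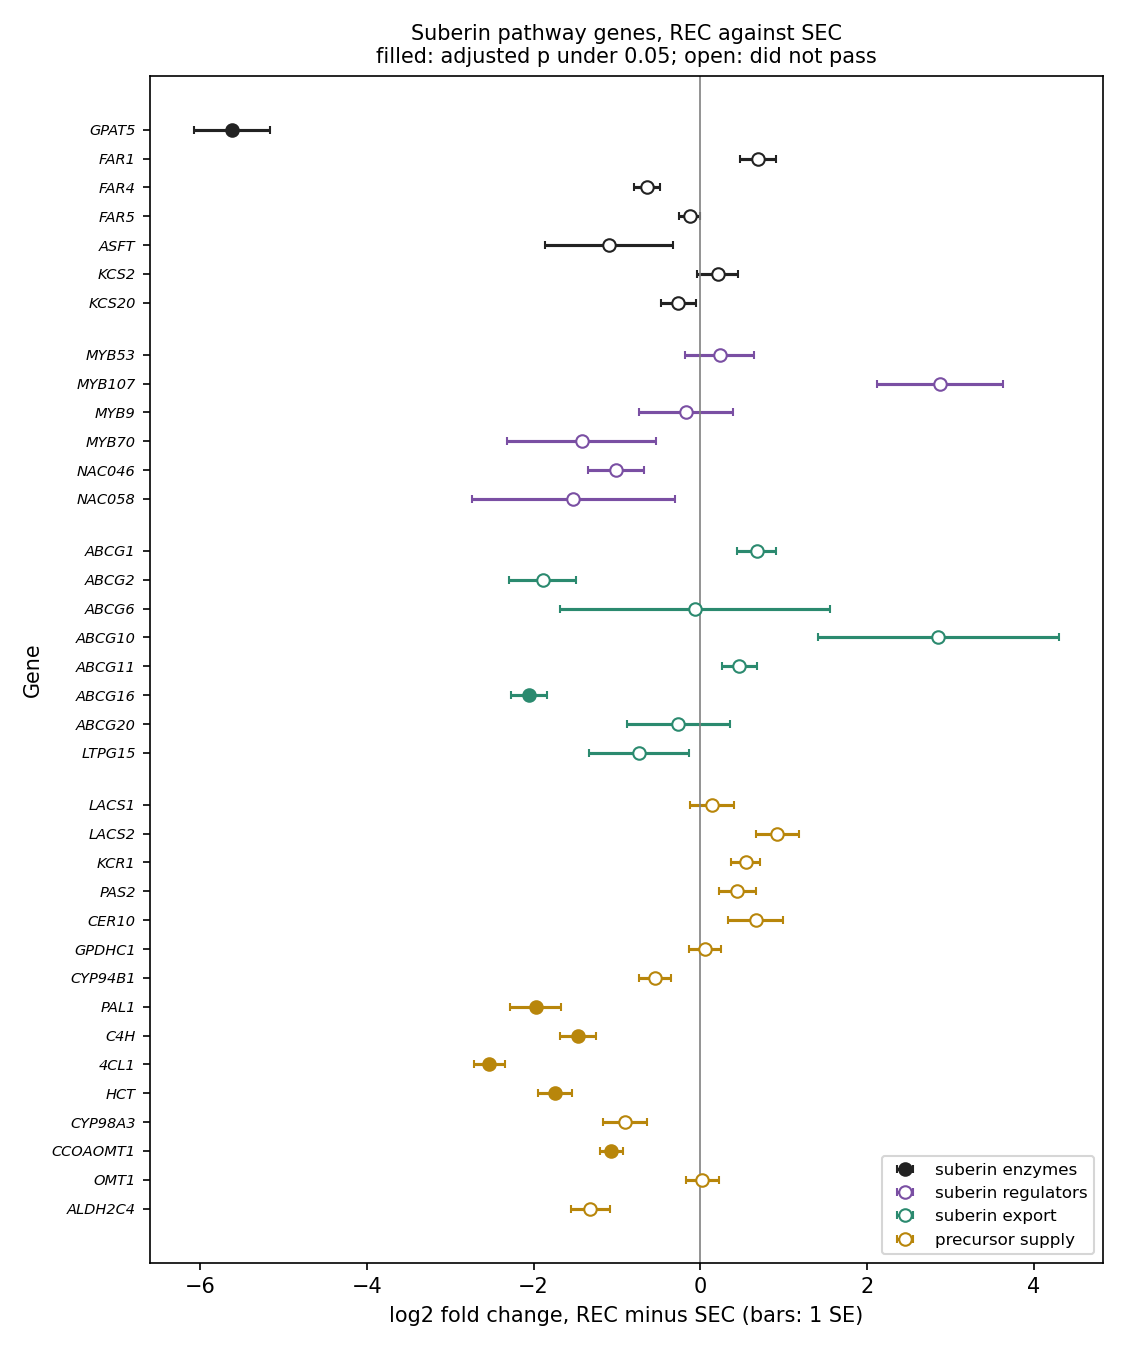
log2 fold change (REC minus SEC, bars 1 SE) of the tested suberin enzymes, regulators, exporters and precursor genes; filled points passed an adjusted p of 0.05. GPAT5 lies farthest to the left at -5.62, and the other filled points, ABCG16 and 5 genes of the ferulate branch, lie on the same side.

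Suberin is induced by abscisic acid in roots, so genes of that response were set beside the enzymes. Of 10 listed genes 8 were tested, 0 passed with the higher level in RECs, 1 with the higher level in SECs, and 7 missed the threshold. Of all genes tested, edgeR called 0.495% and 2.18% in these directions. Before adjustment, 2 and 3 of the 8 reached a p under 0.05, against 9.46% and 14.1% of all genes. DESeq2 and limma voom each called 0 of the list higher in RECs and 1 higher in SECs. Of all genes, DESeq2 called 4.15% and 8.56% in these directions and limma voom 0.495% and 1.75%. RD29A, a stress gene of this response, had 15.5 and 10.08 CPM in the REC pair, against 57.0 and 89.3 CPM in the SEC pair (log2 fold change -2.52 with SE 0.36, adjusted p = 0.0396 by edgeR), a call that leaving out REC replicate 1 ended (adjusted p = 0.0767), as did leaving out REC replicate 2 (0.0871). The 2 genes toward RECs before adjustment were NCED3 (log2 fold change 0.99, adjusted p = 0.138 by edgeR) and HAI1 (0.66, adjusted p = 0.181). Of the 8 tested, 2 had a positive log2 fold change and 6 a negative one. ABI1, a phosphatase that damps the response and the most abundant member, had 155 and 158 CPM in the REC pair, against 224 and 230 CPM in the SEC pair. It did not pass by edgeR (log2 fold change -0.54, adjusted p = 0.144). It passed with the length trend removed (-0.64, adjusted p = 0.0312). With SEC replicate 1 or SEC replicate 2 left out its log2 fold change was -0.55 and -0.50.

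Markers of other cells that make suberin or related polymers were read beside these results. Of 12 endodermis and Casparian strip genes 8 had a count, and those at 0 counts in all 4 libraries included CASP1, SGN1 and SHR. Their summed level ran from 64.5 to 67.9 CPM in RECs and from 38.9 to 41.6 CPM in SECs, mostly from CASP2, at 46.3 and 45.9 CPM in the REC pair, against 30.9 and 30.9 CPM in the SEC pair. CASP2, for a membrane protein of the Casparian strip, had a log2 fold change of 0.58. With SEC replicate 1 or SEC replicate 2 left out it was 0.58 and 0.59. Of the 3 tested genes of this list 0 passed by edgeR, DESeq2 or limma voom, where edgeR called 2.67% of all genes. Before adjustment, 2 of the 3 reached a p under 0.05 with the higher level in RECs and 0 with the higher level in SECs. Of all genes tested, 9.46% and 14.1% did so. Of 9 tapetum genes 7 had a count and DYT1 and ACOS5 had none. Their sum ran from 7.07 to 7.54 CPM in RECs and from 1.16 to 12.3 CPM in SECs, mostly from LAP6, an enzyme gene of pollen wall synthesis. By the same tools 0 of the 3 tested tapetum genes passed, and 0 did at an unadjusted p under 0.05, beside the same shares of all genes. The part of these cells in the results above was not tested.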

How the data were processed

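PolyA RNA of sorted protoplasts was copied to cDNA with 18 amplification cycles and made into libraries with a kit that does not mark strand, per the labels' protocols. The deposited files hold raw counts of reads per gene, 1 file per sample, as the values show. Tools named in the submitters' processing notes include HTSeq 0.6.1, TopHat2 2.0.9 and DESeq2, and the build named is TAIR10. For the annotation and the strand setting, nothing was given in the sources used here. The 5 lines of each file that name no gene stayed out: records in no gene were 46.8% to 47.7% of each library, records with several alignments 5.64% to 7.48%, and ambiguous records 0.367% to 0.438%.

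Groups came from the sample titles. The test on counts was that of edgeR 4.0.16 under R 4.3.3 (glmQLFit and glmQLFTest, TMM, filterByExpr, group only, two-sided) over 18384 genes, with Benjamini-Hochberg adjustment and a threshold of 0.05. Standard errors are the log2 fold change over the square root of F. Alternatives were other normalizations and filters, DESeq2 1.42.0, limma 3.58.1 (voom), removal of the length trend, leaving out each library and a replicate block. At 4-fold, 96.9% of 65 simulated differences were recovered, and 22.4% of 67 at 2-fold. The simulation gave every gene and library the same dispersion and no length trend. The SEC pair here was more uneven, so these shares do not tell how many such differences were found in these data. Limits for 0 counts use 3 counts over a group.

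The 10 genes, the lists and the tests were chosen with earlier results of these data known. All 10 are named, as are 5 abscission zone genes, and of each list up to 3 called genes per direction with the smallest p and the gene of highest mean CPM per kb. PAL1, C4H, the relatives CYP86A2 and FAR8, MYB107 and other genes outside this rule were added after their values were seen. Names, lengths and sequences came from RefSeq's TAIR10.1 annotation, matched by locus for 122 of 122 list genes. The files hold no coordinates, so promoter places are those of TAIR10.1, not of the TAIR10 build.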

Additional observations from a re-analysis of the deposited data

How the results depend on the processing

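Of the 7 tested members, GPAT5 passed in all 12 alternatives and none of the 7 changed direction in any. Members higher in RECs, 0 in the analysis as reported, numbered 1 with the transcript length trend removed and 1 with the replicate block (FAR1 in both). Members higher in SECs, 1 as reported, numbered 2 by DESeq2 and 2 with the length trend removed (GPAT5 and FAR4). With 1 library left out the log2 fold change of FAR1 ran from 0.44 to 1.00 and that of FAR4 from -0.72 to -0.55.

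For the family relatives, higher in RECs counted 8 by DESeq2, 8 with the length trend removed, 6 with the replicate block and 1 to 20 with a library left out; higher in SECs counted 1 by DESeq2, 2 with the length trend removed and 0 to 4 with a library left out. Regulators counted 0 to 1 and 0 to 2 with a library left out. Exporters higher in RECs counted 1 with the length trend removed, 1 with the replicate block and 0 to 4 with a library left out. Exporters higher in SECs counted 2 by DESeq2, with no low-count filter, with the length trend removed and with the replicate block, and 0 to 2 with a library left out. Precursor genes higher in RECs counted 1 by DESeq2, 2 with the length trend removed and 0 to 4 with a library left out. Precursor genes higher in SECs counted 3 with upper-quartile normalization, 8 with the length trend removed and 1 to 8 with a library left out. Abscisic acid genes counted 0 to 2 higher in RECs with a library left out, and higher in SECs 2 with the length trend removed and 0 to 5 with a library left out. With a library left out, endodermis genes higher in RECs counted 0 to 2 and tapetum genes 0 to 1.

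With a library left out the log2 fold change of QRT2 ran from -0.39 to 0.22, that of HSL2 from -0.020 to 0.88 and that of LAP6 from -0.46 to 3.08. Over all genes, 91 were higher in RECs and 400 in SECs, against 763 and 1574 by DESeq2, 874 and 1729 with the length trend removed, 526 and 1161 with the replicate block, 280 and 836 with no low-count filter and 87 and 254 with upper-quartile normalization. With a library left out they ran from 28 to 5630 and from 86 to 4991. RECs took 18.5% of the calls, against 32.6%, 33.6% and 31.2% by DESeq2, without the length trend and with the block. The settings with a library left out tested 19052 to 19215 genes. Without a SEC library the spread comes from the REC pair alone, and without a REC library from the SEC pair. Passing with a SEC library left out is therefore not read as a result about a gene or a list. The cause of the other changes was not tested. With the replicate block ABCG1 passed (0.71). Replicate numbers pair nothing in the labels, and the deviations of same-numbered libraries correlated at 0.04 over 18384 genes. Under 3 counts a gene such as GPAT7 or CYP86A1 cannot be told from absent at this depth.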
